A study of Mus musculus with 15 samples.

Results

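The genes for translation initiation factors and for the enzymes that charge transfer RNAs were followed in the mouse uterus after a single dose of an oestrogen. They were chosen by the gene names printed in the array files, as every name that begins with Eif and a digit from 1 to 6 (kinases of the Eif2ak family left out) and every 1-letter amino acid code followed by "ars" (Gars for glycine, Mars for methionine and so on). This gave 79 genes of the 27939 names on the array, 47 of them Eif names and 32 synthetase names, and 78 were bright enough to be tested. The exception was Eif2s3y, a gene of the Y chromosome, which was not well above background on any array.

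The mice were of the outbred strain CD-1 and had been ovariectomized, so all 5 groups lacked ovarian hormones. The vehicle group had received 100 µl of saline. The other groups had received 250 ng of E2 or of E3 in the same volume, and their uteri were taken 2 h or 24 h later. E2 and E3 are read here as estradiol and estriol, which differ in that estriol has a further hydroxyl group on its D ring. Each group had 3 one-colour Agilent arrays. The collection time of the vehicle uteri, the age of the mice and whether each array held 1 animal are not given in the sources used here, so each p-value reflects only how far these samples spread, which may be technical. Whole uterus was homogenized: fewer cells of a type and less RNA per cell cannot be told apart.

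Initiation is the step of protein synthesis at which the small ribosomal subunit finds a start codon. eIF4E, eIF4G and the helicase eIF4A load it on the capped mRNA, eIF2 brings the initiator methionyl-tRNA, eIF3 holds the assembly together, and eIF1 and eIF1A govern scanning. Aminoacyl-tRNA synthetases join each amino acid to its tRNA, with one set of enzymes for the cytosol and another, mostly encoded by separate nuclear genes, for mitochondria. In the uterus, growth under oestrogen is known to be accompanied by a large increase in RNA and protein synthesis.

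A level here is the log2 of the signal minus the 75th percentile of its own array, so 0 is the signal at that percentile and levels of different genes cannot be set against each other. A change is a difference of 2 group means with its standard error, n = 3 arrays per group, and each p comes from limma after adjustment over 20518 tested genes. A member was called at an adjusted p under 0.05. Signals at that percentile were between 1053 and 1854 and between 63.1% and 80.0% of probes were well above background. The hormone response could be seen in Pgr, the progesterone receptor, which at 2 h rose by 1.99 ± 0.33 (adjusted p = 0.000491) after E2 and 1.82 ± 0.33 (adjusted p = 0.000881) after E3. Of the other genes fixed as a check, Greb1 rose at 2 h by 3.82 ± 0.47 after E2 and 3.72 ± 0.47 after E3. Ltf and C3, also fixed as a check, were not called against vehicle at either time. Among markers fixed for the tissue and its cells, 0 of the lists for epithelium, stroma, smooth muscle and the uterine tissue check had a gene below background on every array. The E3 24 h arrays stood apart: their median standard deviation per gene was 0.277, against 0.166 to 0.20 in the other groups, and the fit pools these spreads, so that E3 24 h errors tend to be too small. All vehicle arrays lay on 1 slide that held no other group, and E2 and E3 arrays of the same time shared no slide.

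The names needed care. By RefSeq accession or synonym, 25 members have a current symbol that differs from the one in the files, and current symbols are used below. The old names Eif2c1 to Eif2c4 belong to the Argonaute genes Ago1 to Ago4, which carry small RNAs and are not initiation factors, and the name Hars2 in the files belongs to Dtd1, a D-aminoacyl-tRNA deacylase. They stay in the counts because the names chose them. The files place the probes of 78 members on the chromosome of the gene in RefSeq. The 1 exception was Eif3j1, whose gene lies on chromosome 2 and whose probe was placed on chromosome 18, where its near-identical copy Eif3j2 lies, so those 2 genes could not be separated. Whether a probe lies in coding sequence or in a UTR was not analysed here.

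At 2 h more members were called higher than lower with either oestrogen. With E2, 21 of 78 members were called higher (26.9%) and 10 lower (12.8%), where 15.5% of all genes tested were higher and 23.1% lower. With E3, 32 were called higher (41.0%) and 6 lower (7.69%), against 16.5% and 23.6% of all genes. The median change was 0.12 with E2 and 0.20 with E3, beside -0.14 and -0.16 over all genes tested. Both comparisons use the same vehicle arrays, so their values are given side by side and are not independent of each other. Of 46 Eif names 17 were higher (37%) and 5 lower with E2, and 20 higher (43.5%) and 4 lower with E3, and the rest were not called. Of the 32 synthetase names 4 were higher (12.5%) and 5 lower with E2, and 12 higher (37.5%) and 2 lower with E3. These counts lean on single arrays. The Eif count with E2 was 11 without vehicle replicate 2, the synthetase counts with E2 were 10 higher and 3 lower without E2 2 h replicate 1, and the synthetases higher with E3 were 6 without E3 2 h replicate 2 and 7 without E3 2 h replicate 3.

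The split of rises and falls moves with the scale. With the median of each array in place of its 75th percentile, the median change over all genes moved from -0.14 to 0.04 (E2 2 h), -0.16 to 0.08 (E3 2 h), -0.02 to 0.19 (E2 24 h) and -0.01 to 0.13 (E3 24 h). On that scale the calls at 2 h were 31 higher and 4 lower of 78 with E2, where 20.7% of all genes were higher and 15.3% lower, and 40 and 3 with E3, against 23.9% and 14.4%. The synthetase median at 2 h with E2 was then 0.17, where it is -0.01 on the 75th percentile scale, with 10 higher and 1 lower. The calls at 24 h were 51 higher and 3 lower with E2, against 30.3% and 15% of all genes, and 17 and 1 with E3, against 14.8% and 6.57%. With quantile normalization the medians at 24 h with E3 were -0.03 for Eif names and -0.03 for synthetases, against 0.22 and 0.09, so that direction is not stable. All other values below are on the 75th percentile scale.

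**Figure D1:**
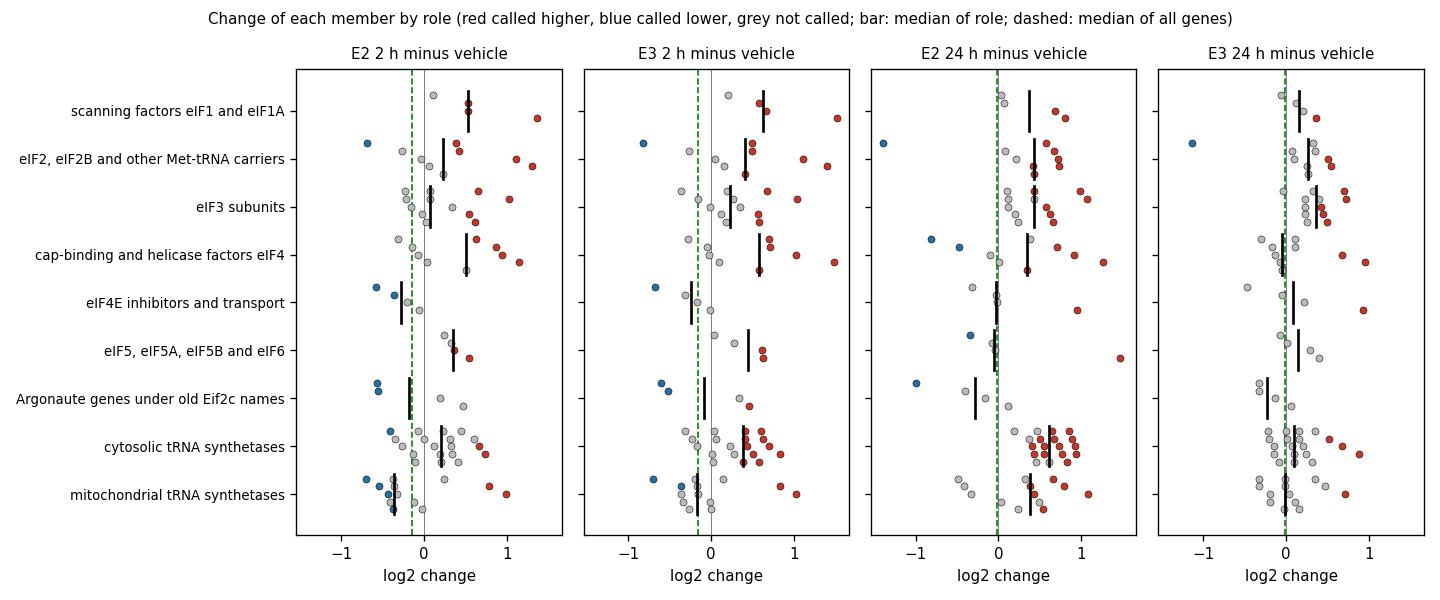
Log2 change of each member from vehicle (x axis), arranged by role (rows), in the 4 comparisons with vehicle (panels); red points were called higher, blue points lower and grey points were not called, the black bar is the median of the role and the dashed line the median of all genes tested. With E2 at 2 h the red points lie mostly among the initiation factors, and with E3 at 2 h 10 of 19 cytosolic synthetases are also red. With E2 at 24 h the cytosolic synthetases have 14 of 19 points called higher.

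Among the factors that govern scanning, Eif1a (probe on chromosome 18, 46986353 to 46986412, build mm7) moved most at 2 h. Its level was 1.07, 1.14 and 0.92 on the vehicle arrays, 2.22, 2.48 and 2.54 with E2 at 2 h, and 2.83, 2.39 and 2.47 with E3 at 2 h. Every 2 h array lay above every vehicle array. The ranked genes named here and below were picked among called members whose arrays did not overlap. For them this separation is a description and not further support. The change was 1.37 ± 0.21 with E2 (2.58-fold, adjusted p = 0.000258) and 1.52 ± 0.21 with E3 (2.87-fold, adjusted p = 0.000114). At 24 h the levels were 1.84, 1.43 and 1.89 with E2 (change 0.68 ± 0.21, adjusted p = 0.0194) and 1.11, 1.73 and 0.90 with E3 (change 0.20 ± 0.21, adjusted p = 0.51), so the E3 arrays overlapped vehicle. Eif1, the partner that checks the start codon, rose by 0.53 ± 0.12 and 0.67 ± 0.12 at 2 h, and Eif1b, its close relative, by 0.54 ± 0.11 and 0.58 ± 0.11. Eif1ax, the X-linked gene for eIF1A, was not called at 2 h (0.11 and 0.20) and rose by 0.81 ± 0.11 with E2 at 24 h (adjusted p = 0.000155).

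The α and β subunits of eIF2 rose early with both oestrogens. Eif2s2, the β subunit (chromosome 2, 154613542 to 154613601), had levels of 3.35, 3.17 and 3.29 in vehicle, 4.38, 4.71 and 4.67 with E2 at 2 h, and 4.63, 4.69 and 4.70 with E3 at 2 h. These groups did not overlap, and the changes were 1.31 ± 0.15 (adjusted p = 3.63e-05) and 1.40 ± 0.15 (adjusted p = 2.18e-05). Eif2s1, the α subunit that carries the regulatory phosphorylation site, rose by 1.11 ± 0.16 with each oestrogen (adjusted p = 0.000182 with E2 and 0.00017 with E3). For the γ subunit Eif2s3x the result differed between probes. The probe used was not called in any comparison with vehicle, with changes from 0.05 to 0.21, but in a fit of all 30834 probes tested another probe was called higher with E2 and E3 at 2 h (0.37 and 0.38) and at 24 h (0.89 and 0.53), and a further one with both at 2 h and with E2 at 24 h. Of the 5 subunits of eIF2B, the exchange factor that recharges eIF2 with GTP, Eif2b1 rose by 0.39 ± 0.12 and 0.50 ± 0.12 and Eif2b2 by 0.42 ± 0.12 and 0.50 ± 0.12 at 2 h. Eif2b5, its catalytic subunit, was called higher with E3 (0.41 ± 0.15, adjusted p = 0.0476) and not with E2 (0.23 ± 0.15, adjusted p = 0.247). Eif2b3 went the other way, with levels from -4.51 to -4.15 in vehicle, -5.16 to -4.89 with E2 at 2 h and -5.34 to -5.09 with E3 at 2 h, a fall by 0.69 and 0.82. Its probe was well above background on 14 of 15 arrays, and with normexp background correction its change with E3 at 24 h was -0.30 (adjusted p = 0.106), not called.

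eIF3 moved in part at 2 h, with 4 of 12 subunits called higher and 0 lower with each oestrogen. The 4 were Eif3a, the largest scaffold subunit (0.66 ± 0.13 with E2 and 0.58 ± 0.13 with E3), Eif3b (0.62 ± 0.19 and 0.67 ± 0.19), Eif3d, a subunit that can itself touch the cap (0.54 ± 0.16 and 0.57 ± 0.16), and Eif3j1 (1.03 ± 0.15 and 1.04 ± 0.15). The other 8 subunits had changes that were not called, among them Eif3i (0.03 ± 0.12 with E2) and Eif3e (-0.16 ± 0.13 with E2). Eif5b, the GTPase that joins the ribosomal subunits, rose by 0.37 ± 0.13 after E2 (adjusted p = 0.0452) and 0.61 ± 0.13 after E3 (adjusted p = 0.00304).

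The cap-binding complex eIF4F rose at 2 h in its cap-binding and helicase subunits. Eif4a1, the helicase (chromosome 11, 69748672 to 69748731), had levels of 4.37, 4.27 and 4.28 in vehicle, 5.28, 5.48 and 5.60 with E2, and 5.83, 5.66 and 5.89 with E3. Every E3 array lay above every E2 array, and both sets lay above vehicle. The changes were 1.14 ± 0.19 (2.21-fold, adjusted p = 0.000451) and 1.49 ± 0.19 (2.80-fold, adjusted p = 6.49e-05), while the difference between the oestrogens was -0.34 with a 95% interval from -0.75 to 0.07 and was not called. Eif4e, the cap-binding protein itself, went from 1.64, 1.41 and 1.39 in vehicle to 2.20, 2.55 and 2.51 with E2 and 2.46, 2.46 and 2.60 with E3, with no overlap. It rose by 0.94 ± 0.13 (adjusted p = 0.000141) and 1.02 ± 0.13 (adjusted p = 7.31e-05). The scaffold Eif4g1 passed with E3 (0.58 ± 0.20, adjusted p = 0.0391) and not with E2 (0.51 ± 0.20, adjusted p = 0.0675), although another of its probes was called with E2 (0.65, adjusted p = 0.00979). The call with E3 was lost with quantile normalization (adjusted p = 0.0705) and without any 1 of vehicle replicate 1, vehicle replicate 2, or the 3 E3 2 h arrays (adjusted p = 0.0512 to 0.13). Eif4g2, a relative of eIF4G that does not bind eIF4E, rose by 0.87 ± 0.18 and 0.70 ± 0.18. Eif4a2, the helicase's paralogue, and the scaffold relative Eif4g3 were not called with either oestrogen at 2 h.

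The start regions of Eif4e and Eif4a1 are shown because both hold the E-box that Myc and Max read. The Myc transcript rose at 2 h by 0.95 ± 0.27 after E2 (adjusted p = 0.0149) and 1.01 ± 0.27 after E3 (adjusted p = 0.0109). Whether Myc acts on Eif4e or Eif4a1 was not tested. The sequences are from RefSeq, build GRCm38.p6, from 250 bases before to 30 bases after the start, written 5′ to 3′ on the gene's strand, and capitals mark the letters CACGTG.
Eif4e, chr3:138527018-138527297, plus strand: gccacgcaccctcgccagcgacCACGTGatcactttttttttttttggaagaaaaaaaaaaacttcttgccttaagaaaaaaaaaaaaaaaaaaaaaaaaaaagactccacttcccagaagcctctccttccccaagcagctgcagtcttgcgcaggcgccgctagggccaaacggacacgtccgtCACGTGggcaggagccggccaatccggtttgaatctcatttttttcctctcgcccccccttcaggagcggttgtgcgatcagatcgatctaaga
Eif4a1, chr11:69672394-69672673, minus strand: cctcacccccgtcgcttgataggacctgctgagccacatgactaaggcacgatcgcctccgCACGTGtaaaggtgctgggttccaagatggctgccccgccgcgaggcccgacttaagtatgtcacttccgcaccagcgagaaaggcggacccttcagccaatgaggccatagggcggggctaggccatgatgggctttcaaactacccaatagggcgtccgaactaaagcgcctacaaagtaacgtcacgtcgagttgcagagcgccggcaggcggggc
In Eif4e the motif begins at -228 and again at -64 from the start, in 1 of its 2 RefSeq windows, and in Eif4a1 at -189. Promoter windows of 250 bases before to 50 after the start were matched for 60 of the 79 members. CACGTG, which reads the same on both strands, was found in 13 of the 60 (21.7%), in 9 of 26 members called higher with E3 at 2 h (34.6%), in 10.9% of 12479 genes tested that had a window, and in 14.1% of those called higher with E3 at 2 h. The members that held it were Eif1b, Eif3a, Eif3f, Eif3k, Eif4a1, Eif4e, Eif4g1, Eif5a, Eif5a2, Aars, Farsb, Iars and Tars. The palindromic oestrogen response element and TGACGTCA, the cAMP response element, were found in 0 of the 60, in 0.0321% and 3.2% of the genes tested. A match is a description of these letters only.

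The inhibitor of eIF4E was below vehicle at 2 h and, by the brighter of its 2 probes, above it at 24 h. Eif4ebp1, which binds eIF4E and blocks its contact with eIF4G (chromosome 8, 26030987 to 26031046), had levels of 2.07, 2.37 and 2.43 in vehicle, 2.02, 1.34 and 1.77 with E2 at 2 h, and 1.72, 1.81 and 1.28 with E3 at 2 h. At 24 h the levels were 3.39, 3.29 and 3.03 after E2 and 3.03, 3.27 and 3.35 after E3. The 2 h arrays lay below every vehicle array and the 24 h arrays above every one. The change at 2 h was -0.58 ± 0.19 after E2 (adjusted p = 0.0331) and -0.68 ± 0.19 after E3 (adjusted p = 0.0141). Either fall missed the threshold without some arrays: with E2 without vehicle replicate 2 or 3 or E2 2 h replicate 2 or 3 (adjusted p = 0.0645 to 0.149), and with E3 without vehicle replicate 3 or E3 2 h replicate 3 (adjusted p = 0.0508 and 0.0669). Both also missed it on the array median scale (adjusted p = 0.146 and 0.0989). At 24 h it had risen over vehicle by 0.95 ± 0.19 (adjusted p = 0.00205) and 0.93 ± 0.19 (adjusted p = 0.00981), and between 2 h and 24 h by 1.53 ± 0.19 after E2 (adjusted p = 4.2e-05) and 1.62 ± 0.19 after E3 (adjusted p = 4.08e-05). Its other probe, also well above background on all 15 arrays, fell at 2 h (-0.99 after E2, adjusted p = 0.00725, and -0.92 after E3, adjusted p = 0.0107) but at 24 h was 0.01 from vehicle after E2 (adjusted p = 0.977) and 0.08 after E3 (adjusted p = 0.851). Both probes rose from 2 h to 24 h. Of its relatives, Eif4ebp3 fell by 0.36 with E2 at 2 h (adjusted p = 0.0271), and Eif4ebp2 was not called against vehicle at either time. The probe used for Eif4enif1, which carries eIF4E into the nucleus, was not called either, but another of its probes was lower at 24 h with E2 (-1.29, adjusted p = 0.000839) and E3 (-0.89, adjusted p = 0.0198), and a further one with E2 at 2 h (-0.37, adjusted p = 0.0297).

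**Figure D2:**
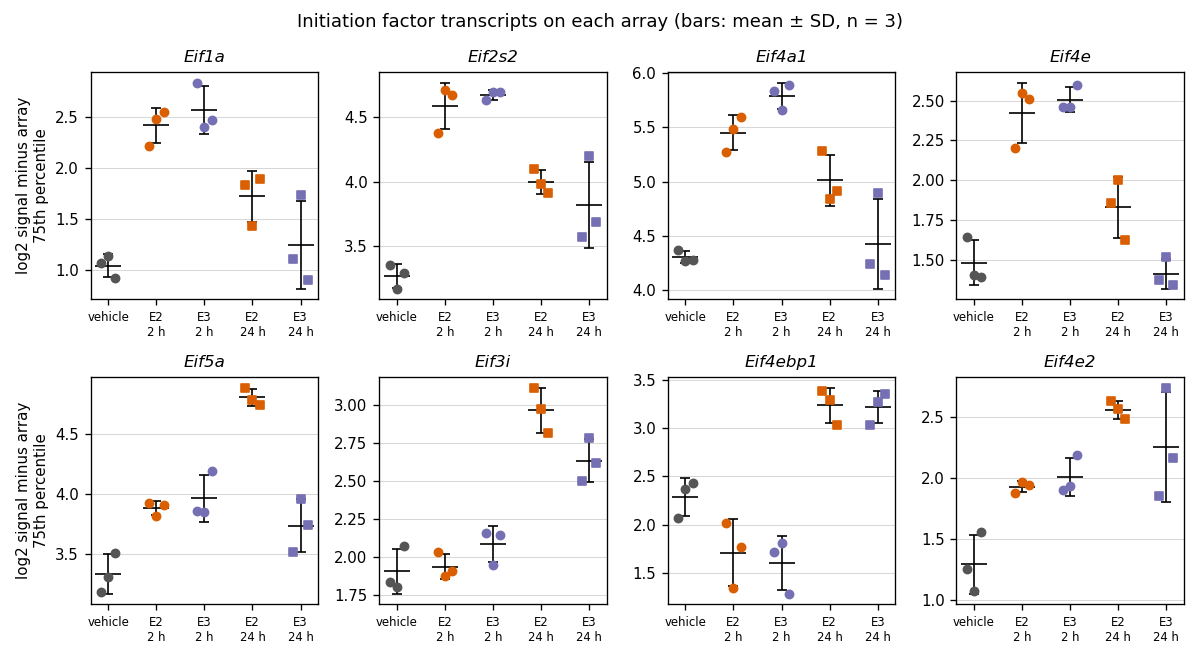
Level of 8 initiation factor transcripts on every array (y axis, log2 signal minus the array's 75th percentile; x axis, group); points are arrays, the horizontal bar is the group mean and the error bar its SD (n = 3). Eif1a, Eif2s2, Eif4a1 and Eif4e are highest at 2 h, Eif5a is highest with E2 at 24 h, and Eif4ebp1 is lowest at 2 h and highest at 24 h with both oestrogens.

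Among the synthetases at 2 h, Yars2, the mitochondrial enzyme for tyrosine, rose most, from 0.20, 0.11 and 0.13 in vehicle to 1.01, 1.31 and 1.12 after E2 and 1.16, 1.14 and 1.23 after E3. The groups did not overlap, and the changes were 1.00 ± 0.15 (adjusted p = 0.000201) and 1.03 ± 0.15 (adjusted p = 0.000157). Mars2, the mitochondrial enzyme for methionine, rose by 0.79 ± 0.11 and 0.83 ± 0.11. Of the other 11 names in the mitochondrial list, 4 were called lower with E2 and 2 with E3. These were 30.8% and 15.4% of the 13 names in the list, where 23.1% and 23.6% of all genes were lower. Those called lower included Sars2, for serine (-0.44 ± 0.16), Fars2, for phenylalanine (-0.38 ± 0.10), and the misnamed Dtd1 (-0.54 ± 0.19) with E2, and Iars2, for isoleucine (-0.36 ± 0.13), with E3. Dtd1 missed the threshold without any vehicle array or without E2 2 h replicate 1 or 3 (adjusted p = 0.0711 to 0.165), and Iars2 without vehicle replicate 1 or 2 or E3 2 h replicate 2 or 3 (adjusted p = 0.0796 to 0.166).

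The cytosolic synthetases were called higher at 2 h in 10 of 19 members with E3 (52.6%) and 2 of 19 with E2 (10.5%). Of all genes 16.5% were higher with E3 and 15.5% with E2, so the E2 count was not above the background. Between the oestrogens 0 members were called, and the gap rests on single arrays. The E2 count was 8 without E2 2 h replicate 1 and 8 on the array median scale, where 20.7% of all genes were higher. The E3 count was 4 without E3 2 h replicate 2, 5 without E3 2 h replicate 3, and 6 without vehicle replicate 1 or 2 (14% and 13.5% of all genes). With array weights both counts were 11, where 23.6% of all genes were higher with E2 and 22.5% with E3. With E2 the 2 called higher were Farsa, the α subunit of the phenylalanine enzyme (0.74 ± 0.15), and Iars, for isoleucine (0.67 ± 0.14), and Qars, for glutamine, was lower (-0.41 ± 0.12, adjusted p = 0.0176). With E3 0 were lower, and the rises included Iars (0.69 ± 0.14), Aars for alanine (0.84 ± 0.28), Nars for asparagine (0.51 ± 0.14) and Gars for glycine (0.41 ± 0.14). The matching E2 values were 0.60 ± 0.28 for Aars, 0.34 ± 0.14 for Nars and 0.20 ± 0.14 for Gars, and another probe of Aars was called with E2 (0.63, adjusted p = 0.0219). The E3 calls of Aars and Gars were lost without vehicle replicate 1, vehicle replicate 2, E3 2 h replicate 2 or E3 2 h replicate 3, and that of Gars also without vehicle replicate 3 (adjusted p = 0.0623 to 0.137). The probe used for Wars, for tryptophan, was not called in any comparison, but with E2 at 24 h it was on the array median scale (adjusted p = 0.024), and the gene's other probe was called at that time on the 75th percentile scale (0.78, adjusted p = 0.0073).

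The start regions of Iars and Gars are shown because they hold TGATGNAAT, the composite element read by ATF4 with C/EBP proteins. Among the genes for such proteins, Atf4 rose at 2 h by 2.18 ± 0.17 after E2 (adjusted p = 2.43e-06) and 2.32 ± 0.17 after E3 (adjusted p = 1.45e-06). Cebpb rose by 3.39 ± 0.22 after either (adjusted p = 4.99e-07 and 4.78e-07). Whether these proteins act on Iars or Gars was not tested. Capitals mark that element, read here on the opposite strand, and in Iars also CACGTG.
Iars, chr13:49681880-49682159, plus strand: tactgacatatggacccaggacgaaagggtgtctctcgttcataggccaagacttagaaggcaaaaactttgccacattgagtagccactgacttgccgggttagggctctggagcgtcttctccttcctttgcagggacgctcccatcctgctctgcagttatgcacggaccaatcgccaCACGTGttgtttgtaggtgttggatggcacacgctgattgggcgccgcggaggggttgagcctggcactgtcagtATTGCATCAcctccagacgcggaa
Gars, chr6:55037751-55038030, plus strand: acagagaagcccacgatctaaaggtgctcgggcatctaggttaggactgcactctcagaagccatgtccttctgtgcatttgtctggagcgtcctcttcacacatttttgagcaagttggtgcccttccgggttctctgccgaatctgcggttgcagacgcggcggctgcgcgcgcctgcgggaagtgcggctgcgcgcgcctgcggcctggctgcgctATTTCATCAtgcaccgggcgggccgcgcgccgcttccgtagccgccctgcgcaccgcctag
In Iars the E-box begins at -69 and the composite element 6 bases after the start; in Gars the element begins at -31. The matches do not overlap. The element was found, on either strand, in 3 of 60 members (Aars, Gars and Iars; 5% of members), which is 3 of 23 synthetases and 0 of 37 Eif names, and in 0.665% of the 12479 genes tested that had a window. It was in 1 of 19 members called higher at 2 h with E2 and 3 of 26 with E3. Of all genes called higher at 2 h, 0.851% held it with E2 and 0.776% with E3. Here too a match is a description of the letters only.

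The direct comparison of the oestrogens at 2 h, at the same dose of 250 ng, called 0 of 78 members in either direction with limma, where 0% of all genes were called higher and 0% lower. At an unadjusted p under 0.05 there was 1 member, Farsb, the β subunit of the phenylalanine enzyme (-0.33, 95% interval from -0.64 to -0.02). The differences over members ran from -0.34 to 0.25 with a median of -0.08. For Eif1a the interval of E2 minus E3 was from -0.60 to 0.30, for Eif2s2 from -0.42 to 0.24, for Eif4e from -0.37 to 0.20 and for Eif5a from -0.38 to 0.22, so these data leave room for differences of that size in either direction.

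At 24 h the synthetases had the larger share called higher with E2 (62.5%, against 43.5% of Eif names), and the Eif names with E3 (23.9%, against 12.5% of synthetases). With E2, 40 of 78 members were called higher (51.3%) and 5 lower (6.41%), against 21% and 22.6% of all genes; the median was 0.43, beside -0.02 over all genes. With E3, 15 were called higher (19.2%) and 1 lower (1.28%), against 9.67% and 10.8% of all genes, with a median of 0.12 beside -0.01. Of the synthetases 20 of 32 were higher with E2 and 0 lower, in the cytosolic list 14 of 19 with a median of 0.61. With E3, 4 of 32 synthetases and 11 of 46 Eif names were called higher. The 11 became 4 without vehicle replicate 1, 3 without vehicle replicate 2 and 5 without E3 24 h replicate 2, where 3 synthetases were called each time. With quantile normalization 10 Eif names were higher and 8 lower with E2, and 17 synthetases were higher and 1 lower. In that setting 20% of all genes were higher and 22.4% lower, so the Eif names were near the background. When the vehicle and E3 24 h arrays were fitted alone, 0 members were called with E3 (adjusted p = 0.0715 for Eif2b3, 0.0728 for Eif3i, Eif4ebp1, Fars2 and Qars, 0.0809 for Kars and 0.095 for Eif4e2). That fit called 0.00487% of all genes higher and 0% lower. The count of 15 became 7 without vehicle replicate 1, 6 without vehicle replicate 2 and 8 without E3 24 h replicate 2. The share of all genes called higher without vehicle replicate 1 was 3.46%, against 9.67% with every array.

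Eif5a, the hypusine-bearing factor that helps peptide bonds form at difficult sequences (chromosome 11, 69998801 to 69998860), had the largest rise of all members with E2 at 24 h. Its level was 3.19, 3.31 and 3.51 in vehicle, 4.89, 4.78 and 4.75 with E2 at 24 h, and 3.52, 3.96 and 3.74 with E3 at 24 h. The E2 arrays lay above all other arrays of the series, and the lowest E3 24 h array lay just above the highest vehicle array. Its rise after E2 was 1.47 ± 0.14 (2.76-fold, adjusted p = 2.06e-05), and the change after E3 was 0.40 ± 0.14 (adjusted p = 0.056; 0.0308 on the array median scale). At 2 h it had risen by 0.55 ± 0.14 with E2 and 0.63 ± 0.14 with E3. Of the enzymes that make hypusine, Dohh rose with E2 at 2 h (0.49 ± 0.13) and at 24 h (0.68 ± 0.13), and Dhps was not called at either time. The probe used for Eif5a2, the second eIF5A gene, was not called in any comparison with vehicle, but its other probe was higher at 2 h, by 0.71 after E2 (adjusted p = 0.00895) and 0.57 after E3 (adjusted p = 0.0277).

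Other initiation factors rose at 24 h with both oestrogens. Eif3i, a subunit at the edge of eIF3, had levels of 1.83, 1.80 and 2.07 in vehicle, 3.11, 2.98 and 2.82 with E2 and 2.50, 2.78 and 2.62 with E3, with vehicle below both. It rose by 1.07 ± 0.12 (adjusted p = 5.74e-05) and 0.73 ± 0.12 (adjusted p = 0.00482). Eif4e2, a relative of eIF4E that binds caps without eIF4G, rose by 1.26 ± 0.19 and 0.96 ± 0.19, while 2 of its other probes were below vehicle with both (-0.66 and -1.33 with E2, -0.59 and -1.12 with E3). Eif4b, a cofactor of the helicase, was called with E3 (0.67 ± 0.18, adjusted p = 0.0245) and not with E2 (0.38 ± 0.18, adjusted p = 0.109; another probe 0.51, adjusted p = 0.0407), as was Eif3k (0.71 ± 0.20 with E3, adjusted p = 0.0273). Both E3 calls were lost without vehicle replicate 1 or 2, that of Eif4b without E3 24 h replicate 2 and that of Eif3k without E3 24 h replicate 3 (adjusted p = 0.0765 to 0.11).

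Some factors of the early rise were nearer to vehicle at 24 h. Eif3a was no longer called with either oestrogen (0.12 ± 0.13 and -0.03 ± 0.13), nor was Eif4g2 (0.00 ± 0.18 and -0.13 ± 0.18). Eif2s1 was still higher with E2 (0.57 ± 0.16, adjusted p = 0.0128; 0.0536 without vehicle replicate 3) and its change with E3 was 0.07 ± 0.16. Eif4a1 was higher with E2 (0.70 ± 0.19, adjusted p = 0.00942) and its E3 change was 0.12 ± 0.19 (adjusted p = 0.692). Eif4e passed with E2 by little (0.35 ± 0.13, adjusted p = 0.0482) and was lost without vehicle replicate 2 or 3 or E2 24 h replicate 1 or 2 (adjusted p = 0.112 to 0.175). With quantile normalization the E2 change was 0.28 for Eif4a1 (adjusted p = 0.193), 0.375 for Eif2s1 (adjusted p = 0.0844) and 0.19 for Eif4e (adjusted p = 0.223), so that none of these 3 was called.

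The members called lower with E2 at 24 h were Eif2b3 (-1.39 ± 0.16), Ago4 (adjusted p = 9.95e-05), Eif4e3, a second relative of eIF4E (-0.81 ± 0.19), Eif4a2 (-0.48 ± 0.14) and Eif5, which triggers GTP hydrolysis by eIF2 (-0.34 ± 0.12). The call of Eif4a2 was lost without vehicle replicate 2 or E2 24 h replicate 2 (adjusted p = 0.0548 and 0.0693), and that of Eif5 without vehicle replicate 2 or 3 or any E2 24 h array (adjusted p = 0.0671 to 0.129). On the array median scale Eif4a2 and Eif5 were not called (adjusted p = 0.157 and 0.519). With E3 only Eif2b3 was called lower (-1.13 ± 0.16, adjusted p = 0.00269). Of the 4 Argonaute genes, Ago1 and Ago4 had fallen at 2 h with both oestrogens (by 0.55 and 0.56 with E2 and by 0.61 and 0.52 with E3), and Ago3 had risen with E3 (0.45 ± 0.14).

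At 24 h some synthetases were called higher with both oestrogens and others with E2. Kars, for lysine, had levels of 2.54, 2.70 and 2.96 in vehicle, 3.69, 3.62 and 3.68 with E2 and 3.32, 3.55 and 3.37 with E3. Both sets lay above vehicle, with changes of 0.93 ± 0.12 (adjusted p = 0.000136) and 0.68 ± 0.12 (adjusted p = 0.00649). Qars, lower than vehicle at 2 h with E2, rose by 0.92 ± 0.12 (adjusted p = 0.000121) and 0.88 ± 0.12 (adjusted p = 0.00249), but 1 of its 3 probes was below vehicle with both (-0.77 and -0.80). Sars, for serine (0.55 ± 0.15 and 0.52 ± 0.15), and the mitochondrial Fars2 (0.79 ± 0.10 and 0.71 ± 0.10) were called with both. Mars1, the cytosolic enzyme for methionine, had levels of 0.68, 0.72 and 1.03 in vehicle, 1.70, 1.73 and 1.47 after E2 and 0.25, 0.97 and 0.79 after E3. The E3 arrays overlapped the vehicle arrays and the E2 arrays lay above both, with a change of 0.82 ± 0.20 after E2 (adjusted p = 0.00632) and -0.14 ± 0.20 after E3 (adjusted p = 0.656). Gars went from -0.31, -0.29 and -0.25 in vehicle to 0.64, 0.38 and 0.69 with E2 (0.85 ± 0.14, adjusted p = 0.000568), and was -0.33, 0.03 and -0.27 with E3 (0.09 ± 0.14). Sars2, for serine in mitochondria, rose by 1.08 ± 0.16 after E2 (adjusted p = 0.000241), and its change after E3 was 0.36 ± 0.16 (adjusted p = 0.12).

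**Figure D3:**
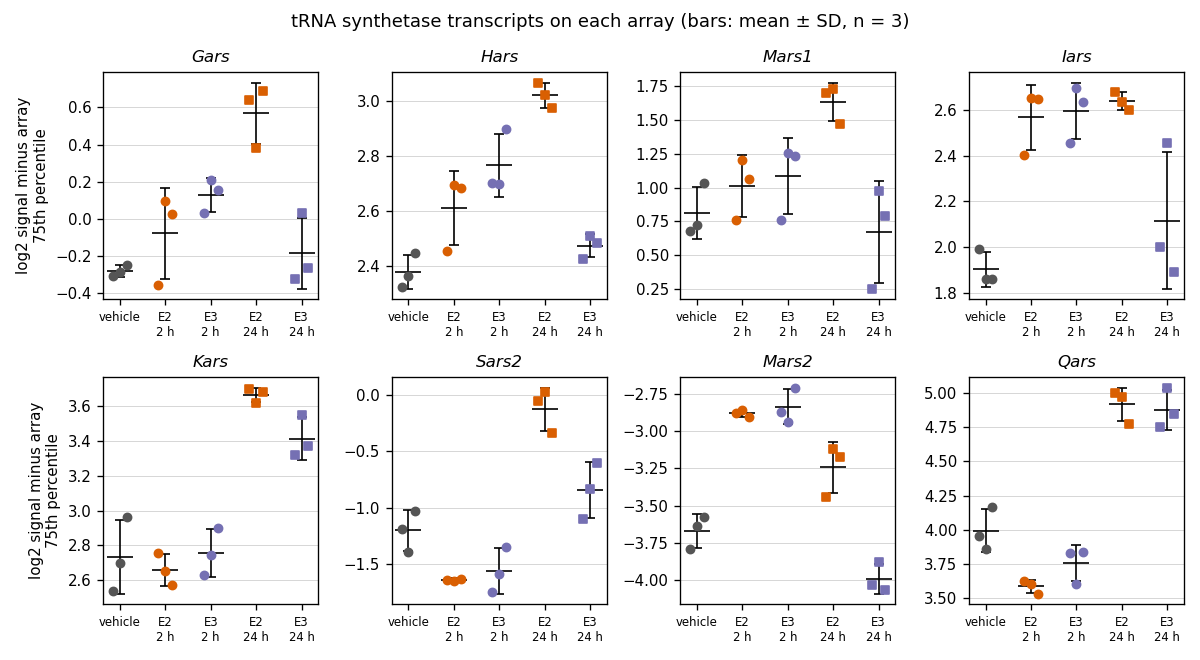
Level of 8 synthetase transcripts on every array (y axis, log2 signal minus the array's 75th percentile; x axis, group); points are arrays, the horizontal bar is the group mean and the error bar its SD (n = 3). In the panels of Gars, Hars, Mars1, Iars, Kars, Sars2 and Mars2 the 3 E2 24 h arrays lie above the 3 E3 24 h arrays, and in that of Qars they overlap.

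Compared directly at 24 h, 17 of 78 members were higher with E2 than with E3 (21.8%) and 1 was lower (1.28%), where 8.89% of all genes were higher and 6.77% lower. The 2 times make 2 comparisons of the oestrogens, and each p is adjusted over all genes in its own comparison. The median difference over members was 0.16, beside -0.02 over all genes; with a fixed slide block, fitted to treated arrays, it was -0.05, beside 0.08. Synthetases made 12 of the 17, among them Mars1 (0.96 ± 0.20, 95% interval from 0.52 to 1.40), Nars2 (0.82 ± 0.21), Gars (0.75 ± 0.14), Mars2 (0.75 ± 0.11), Sars2 (0.72 ± 0.16), Rars for arginine (0.67 ± 0.19), Nars (0.55 ± 0.14), Hars for histidine (0.55 ± 0.10), Iars (0.52 ± 0.14), Farsb (0.52 ± 0.14) and Lars for leucine (0.32 ± 0.10). The other 5 were Eif5a (1.06 ± 0.14, 2.09-fold, adjusted p = 0.000526), Eif4g1 (0.80 ± 0.20), Eif3b (0.75 ± 0.19), Eif1ax (0.44 ± 0.11) and Eif4e (0.42 ± 0.13). Ago4 was lower with E2 (-0.67 ± 0.13, adjusted p = 0.0045). For some members called with both oestrogens the interval of the difference held 0: from -0.22 to 0.30 for Qars, from -0.40 to 0.44 for Eif4ebp1 and from -0.14 to 0.30 for Fars2. This did not hold for all: Eif1ax, among the 5 above, was also called higher than vehicle with E3 (0.37, adjusted p = 0.0356).

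**Figure D4:**
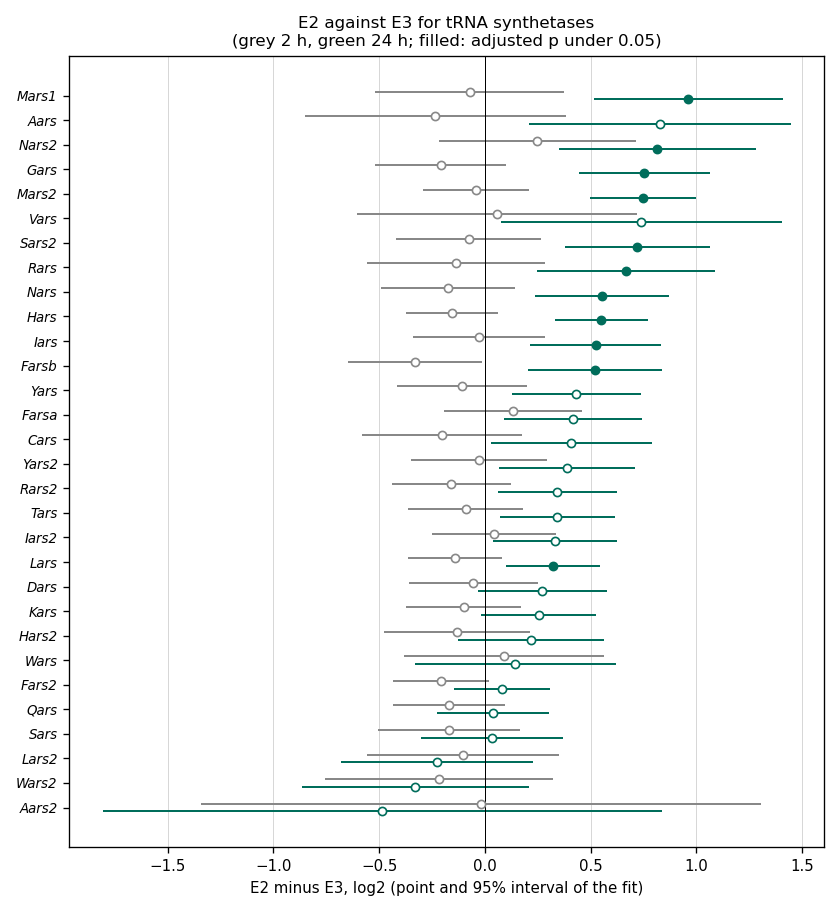
E2 minus E3 for 30 synthetases (rows, ordered by the difference at 24 h; x axis, log2 difference), with the 95% interval of the fit; grey is 2 h, green is 24 h, and filled points were called at an adjusted p under 0.05. At 24 h 11 of those drawn are called, all above 0, and at 2 h 0 are.

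This 24 h difference depends on which arrays estimate the spread. Fitted to the 6 arrays of the comparison alone, only Eif5a was called (adjusted p = 0.043), and the smallest adjusted p among the other 17 was 0.0691 (Mars2). That fit called 0.975% of all genes higher and 0.78% lower. When slide entered as a fixed block (treated arrays only) 0 members were called, and 0% of all genes were called in either direction. Eif5a kept its direction at 0.89 (adjusted p = 0.272). The count of 17 became 7 without E2 24 h replicate 1, 11 without E2 24 h replicate 2, 8 without E3 24 h replicate 3 and 27 without E3 24 h replicate 2. The calls of Eif1ax, Eif3b, Eif4e, Eif4g1, Farsb, Iars, Lars, Nars, Rars and Nars2 were each lost without at least 1 of the 6 arrays, with adjusted p up to 0.17. Those of Eif5a, Gars, Hars, Mars1, Mars2, Sars2 and Ago4 were kept without any 1 of them. Cell markers moved beside it: all 4 markers of proliferating cells (Mki67, Top2a, Ccnb1 and Cdk1) were higher with E2 than with E3 at 24 h, with summed signals relative to the 75th percentile of 9.91 to 12.97 with E2, 4.135 to 8.584 with E3 and 2.972 to 3.936 in vehicle. Of 4 macrophage markers 3 were lower with E2 than with E3 (summed 78.33 to 88.39 against 131.5 to 333.8, and 102.7 to 154.1 in vehicle). Against vehicle at 24 h, 3 of these 4 were called higher with E3 and 0 were called with E2. The part of these cell markers in the result was not tested.

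The time course within each oestrogen gave 28 members higher (35.9%) and 18 lower (23.1%) at 24 h than at 2 h with E2, against 30.4% and 21.9% of all genes, so the members as a whole were near the background. With E3, 14 were higher (17.9%) and 23 lower (29.5%), against 29.8% and 19.9% of all genes. With E2 the larger rises included Eif4ebp1 (above), Sars2 (1.51 ± 0.16) and Qars (1.33 ± 0.12), and the largest falls Ago2 (-0.88 ± 0.19), Eif4g2 (-0.87 ± 0.18), Eif3j1 (-0.80 ± 0.15) and Eif4e3 (-0.74 ± 0.19). With E3 the falls were led by Eif4a1 (-1.37 ± 0.19), Eif1a (-1.32 ± 0.21), Mars2 (-1.15 ± 0.11) and Eif4e (-1.09 ± 0.13).

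Whether the difference between the oestrogens changed from 2 h to 24 h was tested with the interaction of hormone and time. It called 6 members higher (7.69%) and 0 lower, against 3.79% and 2.37% of all genes. Among the 6 were Eif5a (1.14 ± 0.19, adjusted p = 0.00821), Gars (0.96 ± 0.20, adjusted p = 0.0194), Farsb (0.85 ± 0.20, adjusted p = 0.032), Mars2 (0.79 ± 0.16, adjusted p = 0.0178) and Hars (0.71 ± 0.14, adjusted p = 0.0162). Without E3 2 h replicate 3 the count was 2 and without E3 24 h replicate 2 it was 15. With slide as a fixed block it was 0, and 0% of all genes were called. Gars, Farsb and Mars2 each lost their call without 1 or more arrays, Gars and Mars2 only without E3 2 h replicate 3 (adjusted p = 0.0518 for each). With normexp background correction Mars2 was not called either (0.50, adjusted p = 0.0931). Farsb was not called in a fit of the treated groups alone (0.85, adjusted p = 0.0618).

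The control of eIF2 moved at 2 h beside the factors. Of 17 genes for eIF2 kinases, their phosphatase and the stress response that follows eIF2 phosphorylation, 9 rose and 3 fell at 2 h after E2 (median 0.54), where 15.5% of all genes rose and 23.1% fell, and after E3 10 rose and 3 fell (median 0.82), against 16.5% and 23.6%. Ppp1r15a, which brings the phosphatase to eIF2, rose by 2.13 ± 0.16 and 2.22 ± 0.16, its constitutive relative Ppp1r15b by 1.52 ± 0.16 and 1.43 ± 0.16, and Chac1, a target of that response, by 2.80 ± 0.50 and 2.70 ± 0.50. Ddit3, another of its targets, fell with E2 (-0.82 ± 0.15) and so did the kinase Eif2ak3 (-0.82 ± 0.18). Asns, asparagine synthetase, was not called (0.54 ± 0.48 and 0.82 ± 0.48). At 24 h with E2 3 of the 17 were higher and 4 lower, near the shares of all genes (21% and 22.6%).

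In the list of mTORC1 and eIF4 regulators 6 of 18 rose at 2 h after E2 and 0 fell (all genes, 15.5% and 23.1%), and after E3 the numbers were 7 and 1 (all genes, 16.5% and 23.6%). They included Larp1, which binds mRNAs of the translation machinery (1.07 ± 0.13 with E2), Mknk2, a kinase of eIF4E (0.95 ± 0.16), Ddit4, an inhibitor of mTORC1 (0.83 ± 0.24), and Rheb, its activator (0.78 ± 0.09). At 24 h Pabpc4, a poly(A)-binding protein, was higher with E2 (0.98 ± 0.13) and with E3 (0.59 ± 0.13).

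Genes of the later steps of translation were also called at both times. Of 16 elongation and release factors 4 rose and 1 fell with each oestrogen at 2 h, where 15.5% of all genes rose with E2 and 16.5% with E3. They were Etf1, the release factor that reads stop codons, by 1.84 ± 0.16 with each, its partner Gspt1 by 1.08 ± 0.20 and 0.84 ± 0.20, the recycling factor Abce1 by 1.12 ± 0.16 and 1.08 ± 0.16, and Dohh, while the kinase Eef2k fell by 0.71 and 0.73. At 24 h with E2, where 21% of all genes were higher and 22.6% lower, 6 of the 16 were higher and 0 lower, with Eef1g (0.93 ± 0.15) among them. Eef1a1 and Eef2, the main elongation factors, were not called with either oestrogen at either time. Of 9 mitochondrial translation factors 2 rose and 3 fell with E2 at 2 h and 6 rose and 0 fell at 24 h, when Tufm rose by 1.02 ± 0.17, Tsfm by 0.85 ± 0.15 and Gfm1 by 0.80 ± 0.11. Gfm1 and Tsfm were also higher with E2 than with E3 at 24 h (0.68 ± 0.11 and 0.82 ± 0.15).

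The partners of the synthetases were also measured. Of 8 scaffold and charging genes, Eef1e1, a scaffold of the complex that holds several cytosolic synthetases, rose by 1.41 ± 0.22 and 1.59 ± 0.22 at 2 h, and Aimp2, another scaffold, by 0.51 ± 0.16 and 0.55 ± 0.16. Aimp1, the third, fell by 0.43 with E2 at 2 h and rose by 0.55 ± 0.10 with E3 at 24 h. Some genes of these families have names in the files that the pattern missed. Eprs, the enzyme for glutamate and proline, rose by 0.43 ± 0.14 and 0.40 ± 0.14 at 2 h and was higher with E2 than with E3 at 24 h (0.63 ± 0.14, adjusted p = 0.0112). Pars2, for proline in mitochondria, fell by 1.31 and 1.25 at 2 h, and Cars2, Tars2 and Vars2 of the mitochondrial set also fell with both. Eif6, an anti-association factor of the large subunit listed under its old name Itgb4bp, rose by 0.57 ± 0.12 and 0.62 ± 0.12 at 2 h and by 0.67 ± 0.12 with E2 at 24 h. Eif1ad rose by 1.02 ± 0.10 and 0.96 ± 0.10 at 2 h, and Eif4a3, the helicase of the exon junction complex, by 0.93 ± 0.15 and 1.00 ± 0.15. Chosen by current symbols, 83 genes had 82 tested, of which 24, 34, 44 and 16 were called higher in the 4 comparisons with vehicle in the order above and 19 between E2 and E3 at 24 h.

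Members with several probes did not always move as 1. The probe used was the one with the highest mean; 50 members had more than 1 probe tested. In the fit of all probes, at least 1 probe was called in 33, 32, 38 and 21 of the 50 in the 4 comparisons with vehicle (E2 and E3 at 2 h, then at 24 h), and every probe the same way in 16, 16, 8 and 0. Here 0 members had probes called in opposite directions at 2 h with either oestrogen, but 8 had with E2 at 24 h: Eif2s2, Eif3d, Eif4e, Eif4e2, Farsa, Hars, Iars and Qars, and 3 with E3 at 24 h: Eif2s2, Eif4e2 and Qars. Of 167 member probes 7 rose at 2 h and were below vehicle at 24 h with E2 (4.19%), and 6 with E3 (3.59%), against 2.55% and 1.59% of all probes tested. All 7 were probes other than the one used, in Eif2s2, Eif3d, Eif4e, Eif5, Farsa, Hars and Iars, and 6 were designed on cDNA clones and the one of Farsa on a RefSeq mRNA. They lay 1.39 to 19.5 kb from the probe used for the gene.

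The pattern was largest in Eif2s2. Its clone-based probe (chromosome 2, 154629258 to 154629317, mm7) had levels of -3.31, -3.12 and -3.41 in vehicle, -1.42, -0.88 and -0.98 with E2 at 2 h, and -4.10, -4.67 and -4.18 with E2 at 24 h. The 2 h arrays lay above and the 24 h arrays below every vehicle array, with changes of 2.19 ± 0.20 (adjusted p = 6.66e-06) and -1.04 ± 0.20 (adjusted p = 0.0015). The probe used for the gene was higher than vehicle at both times. In Iars the clone-based probe (chromosome 13, 49206323 to 49206382) changed by 0.95 ± 0.21 at 2 h and -0.80 ± 0.21 at 24 h with E2, while the other probes of the gene rose at both times (0.67 and 0.63 at 2 h, 0.74 and 0.76 at 24 h). These probes share their gene and arrays with the values above and are not replicates of them.

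**Figure D5:**
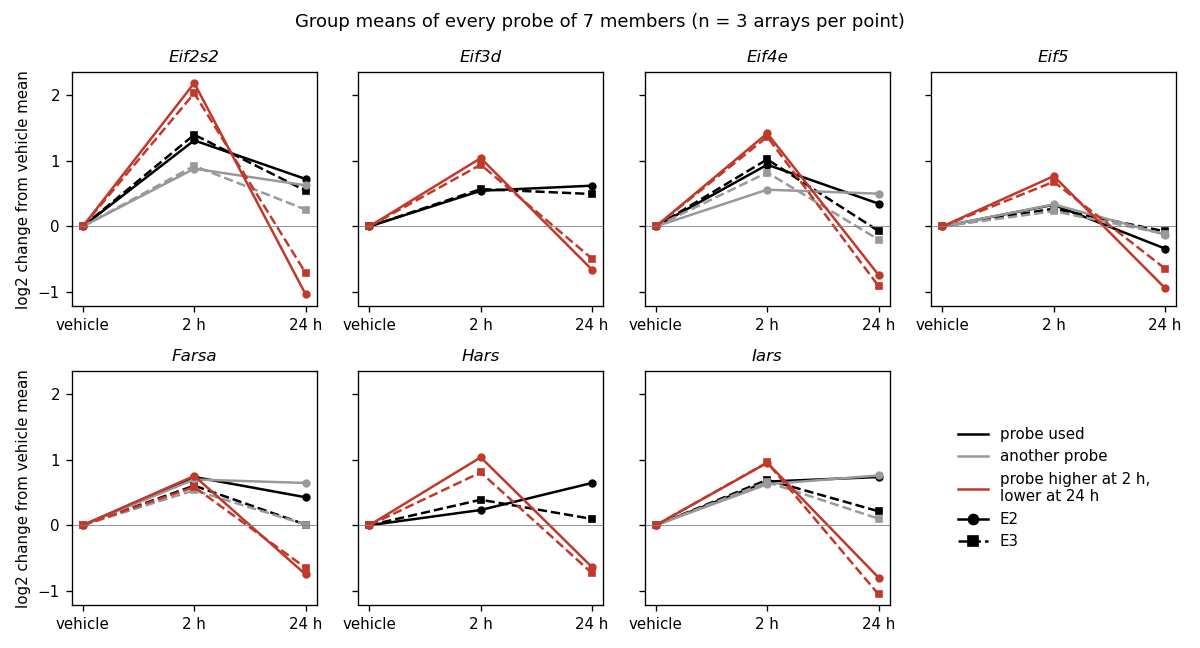
Group mean change from vehicle (y axis, log2) at vehicle, 2 h and 24 h (x axis) for every probe of the 7 members with a probe that rose at 2 h and lay below vehicle at 24 h; solid lines are E2, dashed lines E3, black is the probe used, grey another probe and red the probe with that pattern (n = 3 arrays per point). The red lines end below 0 in all 7 panels, and the black line of E2 ends above 0 in every panel except that of Eif5.

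Other cell markers moved with the comparisons as well. At 24 h 4 of 6 stromal markers were higher with each oestrogen and 2 were lower with E2 (summed relative signals 582.8 to 660.6 with E2 and 629.9 to 761.4 with E3, against 350.7 to 414.7 in vehicle). Of 5 smooth muscle markers 3 were higher with E2 and 5 with E3, and 0 were lower. Of 4 endothelial markers 3 were lower with E2 at 24 h. At 2 h 2 of 6 stromal markers were lower with E2 and 5 of 6 with E3. Red blood cell markers were higher in every treated group: at 2 h 3 of 3 with E2 and 2 of 3 with E3, and at 24 h 3 of 3 with each. Their summed signals were 31.92 to 49.16 in vehicle. At 2 h they were 81.99 to 102.6 with E2 and 61.22 to 75.42 with E3. At 24 h they were 67.73 to 116.8 with E2 and 55.06 to 92.11 with E3. All 4 proliferation markers were higher with E2 at 24 h and 2 of 4 with E3, and 0 at 2 h with either. Of 7 epithelial markers 2 were higher and 0 lower with E2 at 24 h, and of 4 granulocyte and 4 adipocyte markers tested 0 were called against vehicle with limma at either time, also 0 at an unadjusted p under 0.05. Their part in the members' changes was not tested.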

How the data were processed

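RNA of 15 uterine samples (3 per group) was hybridised to one-colour Agilent mouse arrays. The authors deposited the scanner output: per the file headers its processed signal is an intensity on a linear scale, background-subtracted and detrended, and not normalized between arrays (Agilent Feature Extraction 9.5 per the submitters' processing notes). The deposited value table of the series, also an intensity, held the same values. The headers name build mm7 for probe positions.

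Here, control and flagged spots were left out, probes averaged, and each array's 75th percentile of non-control log2 signals was subtracted. For each gene name the probe of highest mean was used, and tested if well above background on all 3 arrays of 1 group or more. Group means were fitted together (15 arrays) in limma 3.58.1 under R 4.3.3, with Benjamini-Hochberg adjustment over 20518 genes; the steps were tested on simulated data. Names and start regions came from RefSeq, GRCm38.p6. The genes named were, for each comparison with vehicle, the 8 largest rises and 6 largest falls called whose arrays did not overlap, 4 and 4 between times, every member called between E2 and E3, and some fixed in every comparison; other members are given to complete a role. The members and lists were chosen with earlier results of these data known. Alternatives covered scaling, background, filters, probes, variance, slide, scan day, replicate number and leaving out each array; arrays give no counts, so their number limits the precision. One member is counted but not reported here.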

Additional observations from a re-analysis of the deposited data

Results flagged for a closer look

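The difference between E2 and E3 was larger at 24 h than at 2 h, by the interaction of hormone and time in limma over all 15 arrays, in 6 members. On the log2 scale it was 1.14 for Eif5a, 0.96 for Gars, 0.85 for Farsb, 0.79 for Mars2 and 0.71 for Hars (adjusted p = 0.00821, 0.0194, 0.032, 0.0178 and 0.0162). In each of these 5 all 3 E2 24 h arrays lay above all 3 E3 24 h arrays. They were picked by their call in these same arrays, so this is a description and not further support. The share of all genes that separated in this way was not counted. With a fixed slide block 0 members passed, and 0% of all genes. Mars2 also missed the threshold with normexp background correction (adjusted p = 0.0931). Farsb missed it when the treated groups were fitted alone (adjusted p = 0.0618). E2 and E3 arrays of the same time shared no slide, so slide and oestrogen cannot be told apart within a time.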

How the results depend on the processing

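The E2 and E3 calls rest on 3 arrays per group, pooled spread and a layout in which vehicle and treated arrays share no slide; the cause of each move was not tested unless the setting itself uses fewer genes, arrays or members. Over the genes named, 3197 of 3565 values under other settings or without an array kept direction and side of the threshold, 274 lost their call, 83 gained one and 11 reversed.

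Leaving out 1 array at a time, the members called higher ran from 15 to 28 (E2 2 h), 23 to 31 (E3 2 h), 32 to 38 (E2 24 h), 6 to 21 (E3 24 h), 0 to 0 (E2 minus E3 at 2 h), 7 to 27 (E2 minus E3 at 24 h), 22 to 28 (E2, 24 h minus 2 h), 11 to 16 (E3, 24 h minus 2 h) and 2 to 15 (interaction). Those called lower ran from 5 to 8, 4 to 7, 3 to 5, 1 to 2, 0 to 0, 1 to 2, 15 to 18, 19 to 28 and 0 to 1. The low counts came without vehicle replicate 3 or E2 2 h replicate 3 (5 lower with E2 at 2 h) and without vehicle replicate 2 or E2 24 h replicate 2 (3 lower with E2 at 24 h).

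In the comparisons with vehicle, E2 2 h had 4 lower on the array median scale or at an adjusted p under 0.01, 6 lower with no filter on dim probes or without the Argonaute and eIF4E inhibitor names, and 37 higher with array weights. E3 2 h had 10 lower with quantile normalization, 3 lower on the median scale or without those names, and 19 higher at 0.01. E2 24 h had 9 lower with quantile normalization, 3 on the median scale or at 0.01, and 8 with array weights. E3 24 h had 8 higher and 3 lower with quantile normalization, 0 lower with normexp or with probes well above background on all 15 arrays, 7 higher and 4 lower with the mean of a gene's probes, 2 lower with array weights, 0 and 0 in a fit of its own groups, 7 higher with scan day as a block or on scan day 1 alone, and 6 higher at 0.01. For E3 24 h with quantile normalization, 8.9% of all genes were higher and 10.8% lower.

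For E2 minus E3 at 24 h, 2 were lower with normexp, probes well above background on all arrays, trended and robust variance, array weights or the scan day block, where 11 were higher; 1 was higher and 0 lower in its own groups, 0 and 0 with the slide block, 7 higher at 0.01, and 0 lower without the Argonaute and inhibitor names or with members by current symbol, a set added after seeing the data. The slide block turned Farsb to -0.0445, Gars to -0.0687, Iars to -0.0662, Nars to -0.0968, Rars to -0.2115 and Nars2 to -0.0797. For 24 h minus 2 h it left 16 higher with E2 and 0 and 0 with E3 (0.253% and 0.331% of all genes), where Nars became 0.21 and Iars 0.12. At 0.01 E2 had 11 lower, and with the mean of probes Aars was -1.50 and Iars -0.52. The interaction had 10 higher on the median scale, 11 with probes above background on all arrays (1 lower) or with trended variance, 20 with array weights (1 lower), 1 at 0.01, 2 with scan day as a block, 0 with the slide block (Gars -0.30), and 1 lower on scan day 1 alone or with the mean of probes. With slide as a random block (correlation 0.144) the counts higher were 20, 27, 35 and 10 against vehicle and 13 for E2 minus E3 at 24 h.

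The replicate numbers did not pair the arrays: deviations of same-numbered arrays correlated from -0.223 to 0.204 over 30 pairs. With the replicate block 22, 30, 38 and 12 members were higher and 7, 6, 5 and 1 lower against vehicle, 14 and 1 between E2 and E3 at 24 h, and 5 in the interaction.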
